A study of Homo sapiens with 5 samples.

Results

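Intergenic distal peaks are regions of histone H3 lysine 27 acetylation (H3K27ac) that lie away from both genes and promoters. A peak was placed in this class when it lay on chromosomes 1 to 22 or X, its centre was more than 5 kb from every transcription start site (TSS) of a protein-coding gene and outside every protein-coding gene, and it was more than 1 kb from every start of a long noncoding RNA (lncRNA) transcript in GENCODE release 44. This held for 3331 of the 20087 peaks in the table, or 16.6%. H3K27ac was measured by ChIP-seq in HCT116 CMV-osTIR1 RAD21-mAC, a human colorectal carcinoma line that carries an auxin receptor and a degron-tagged RAD21. All cells, controls included, were kept in 0.1% DMSO for 6 h, and the labels name no auxin. The IFN-β group (2 libraries) then received 1000 unit/ml for 1 h and the control group (2 libraries) received nothing more, while 1 input library served as background. Sample titles give 60 min for IFN-β and for the input and 0 min for the controls, so 1 h more of culture and the cytokine cannot be told apart. The line is a single engineered derivative, and no source used here says whether the libraries of a group came from separate cultures.

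The table gives 1 value per group for each peak, the log2 of mean normalized reads over its 2 libraries, and no value per library. There is therefore no spread between replicates, no test was run between the groups, and differences are described by their size. The lowest value was -0.17 in the control group and -0.59 in the IFN-β group. If it stands for 1 read in each library, the median control signal of the intergenic distal peaks rests on 43.7 reads over both libraries and the median IFN-β signal on 39.1 reads. The intervals given with single peaks follow from such read numbers at 95%, and cover counting error only. As a check of the line, 9 of 11 epithelial marker genes had a peak within 1 kb of a TSS, EPCAM with the highest control signal of 7.10, against 1 of 5 fibroblast genes (COL1A1, 5.24), 0 of 5 blood genes and 0 of 4 endothelial genes.

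Distal H3K27ac marks active enhancers, stretches of DNA that bind transcription factors and raise transcription from promoters that may be far away or beyond other genes. The nearest gene is therefore only a guide to the target of such a region. In epithelial and carcinoma cells many enhancers carry sites for AP-1, the dimer of FOS and JUN proteins at the end of the RAS and ERK cascade. Type I interferon acts through a complex of STAT proteins and IRF9, which binds the interferon-stimulated response element (ISRE).

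The central 300 bp of 8 intergenic distal peaks are given as examples. These peaks were picked for extreme values or for a listed gene beside them and do not represent the class. The sequences were read from GRCh38, plus strand, and are named by the protein-coding genes on either side. Capitals mark AP-1 (TGACTCA or TGAGTCA), the ISRE core (GAAANNGAAA) and TCF/LEF (ATCAAAG) motifs on either strand. The first sequence (chr12:88934912-88935211) has the highest control signal of the class, the second (chr3:149340275-149340574) was higher after IFN-β in a peak with no recurring 31-mers, and the third (chr5:104512572-104512871) had the lowest difference among peaks with a mean log2 signal of at least 5. These 3 hold none of the motifs in the stretch shown. The IER3-DDR1 (chr6:30813887-30814186) and KLF5-KLF12 (chr13:73090432-73090731) peaks carry an AP-1 motif each beside immediate early and intestinal genes, and KLF5-KLF12 also a TCF/LEF motif. Those of TMEM235-SOCS3 (chr17:78329408-78329707) and POU5F1-HLA-C (chr6:31203957-31204256) lie beside interferon-stimulated genes. The last (chr3:93470371-93470670) is the peak with the highest IFN-β value and shows the repeated units described further on.
KITLG-DUSP6: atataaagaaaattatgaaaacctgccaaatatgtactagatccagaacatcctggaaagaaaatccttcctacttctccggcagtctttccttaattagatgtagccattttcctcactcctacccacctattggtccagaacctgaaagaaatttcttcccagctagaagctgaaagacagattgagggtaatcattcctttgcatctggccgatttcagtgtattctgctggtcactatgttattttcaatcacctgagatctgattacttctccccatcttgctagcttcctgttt
TM4SF18-TM4SF1: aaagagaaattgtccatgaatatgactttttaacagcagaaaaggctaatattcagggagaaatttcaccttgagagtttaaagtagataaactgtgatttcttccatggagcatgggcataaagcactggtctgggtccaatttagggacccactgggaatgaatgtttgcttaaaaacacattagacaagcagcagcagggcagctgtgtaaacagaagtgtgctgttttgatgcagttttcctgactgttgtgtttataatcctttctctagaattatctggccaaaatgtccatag
NUDT12-EFNA5: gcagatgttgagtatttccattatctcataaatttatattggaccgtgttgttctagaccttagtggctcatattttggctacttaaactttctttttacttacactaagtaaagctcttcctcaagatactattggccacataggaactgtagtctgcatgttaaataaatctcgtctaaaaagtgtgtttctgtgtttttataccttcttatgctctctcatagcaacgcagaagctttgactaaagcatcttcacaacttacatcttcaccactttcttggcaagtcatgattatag
IER3-DDR1: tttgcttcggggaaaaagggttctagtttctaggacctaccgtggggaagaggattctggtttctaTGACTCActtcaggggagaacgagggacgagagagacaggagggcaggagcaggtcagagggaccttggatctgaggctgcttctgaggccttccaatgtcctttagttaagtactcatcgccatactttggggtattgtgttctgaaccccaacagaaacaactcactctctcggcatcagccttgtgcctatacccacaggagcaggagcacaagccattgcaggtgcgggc
KLF5-KLF12: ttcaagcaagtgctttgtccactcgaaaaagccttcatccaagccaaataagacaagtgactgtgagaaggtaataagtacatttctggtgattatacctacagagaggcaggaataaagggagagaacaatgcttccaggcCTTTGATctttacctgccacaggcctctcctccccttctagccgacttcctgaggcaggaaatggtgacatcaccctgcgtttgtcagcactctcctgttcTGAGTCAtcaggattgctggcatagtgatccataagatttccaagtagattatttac
TMEM235-SOCS3: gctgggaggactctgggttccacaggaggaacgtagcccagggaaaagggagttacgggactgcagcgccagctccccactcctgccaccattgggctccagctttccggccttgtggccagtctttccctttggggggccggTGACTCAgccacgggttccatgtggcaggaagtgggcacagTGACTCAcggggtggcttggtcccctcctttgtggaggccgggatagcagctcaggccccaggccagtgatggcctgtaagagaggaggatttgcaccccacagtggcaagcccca
POU5F1-HLA-C: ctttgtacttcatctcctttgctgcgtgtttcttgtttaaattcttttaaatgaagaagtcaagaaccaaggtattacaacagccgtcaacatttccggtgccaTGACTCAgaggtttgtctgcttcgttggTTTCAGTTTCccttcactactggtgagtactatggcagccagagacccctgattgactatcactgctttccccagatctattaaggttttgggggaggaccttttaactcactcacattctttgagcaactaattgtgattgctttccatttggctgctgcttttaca
EPHA3-PROS1: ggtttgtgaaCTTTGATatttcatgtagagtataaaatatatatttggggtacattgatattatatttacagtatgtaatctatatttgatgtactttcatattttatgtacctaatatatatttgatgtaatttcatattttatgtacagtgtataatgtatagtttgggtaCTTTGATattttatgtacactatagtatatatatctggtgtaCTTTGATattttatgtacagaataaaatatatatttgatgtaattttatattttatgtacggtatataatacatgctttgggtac

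The intergenic distal peaks lay a median of 41929 bp from the nearest protein-coding TSS, with quartiles of 17149 bp and 114140 bp. The shortest distance was 5001 bp and the longest 5498961 bp. Of the 3331 peaks, 396 were within 10 kb of a TSS, 945 (28.4%) were over 100 kb away, 184 over 500 kb and 56 over 1000 kb. The territory in which the rule allows a peak, measured every 100 bp outside assembly gaps, came to 1507.4 Mb or 51.8% of these chromosomes, which gives 2.21 peaks per Mb. Density fell with distance, from 5.67 peaks per Mb between 5 and 10 kb to 2.71 between 50 and 100 kb and 0.560 beyond 500 kb (a ratio of 10.1). While 58.5% of the territory lay more than 100 kb from a TSS, 28.4% of the peaks did. Signal followed distance less closely. Median control signal stayed between 4.18 and 4.37 in every distance class up to 500 kb and was 3.44 beyond.

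**Figure D1:**
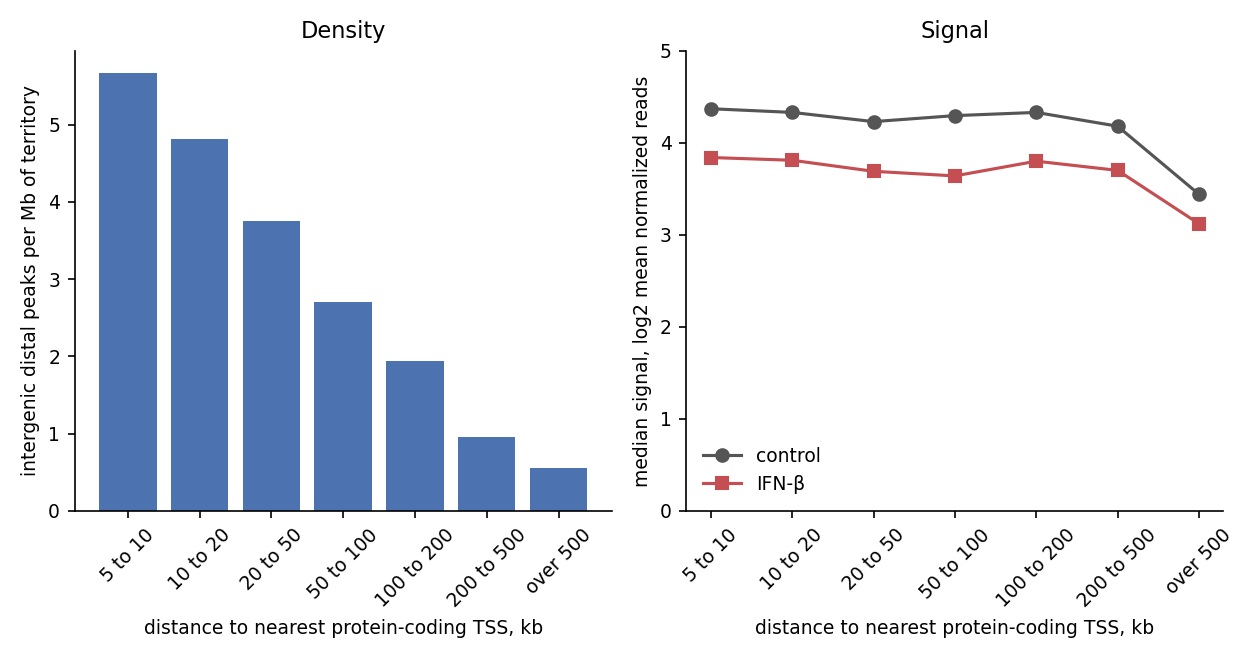
Left, intergenic distal peaks per Mb of allowed territory (bars) against distance to the nearest protein-coding TSS in kb. Right, median log2 signal of the same peaks in control (circles) and IFN-β (squares). Density falls from 5.67 to 0.560 peaks per Mb, while the median control signal leaves the range of 4.18 to 4.37 only beyond 500 kb, at 3.44.

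The peaks had 1879 different nearest genes, and for 3310 of them (99.4%) the nearest TSS belonged to 1 of the 2 genes that flank the peak. The nearest TSS had the peak on its upstream side for 1930 peaks (57.9%), against 54.9% of the territory. Both flanking genes were present for 3293 peaks and lay a median of 171.7 kb apart. The starts of both genes faced 921 peaks (27.7%, against 25.3% of the territory), the ends of both faced 671 (20.1% against 22.1%), and 1701 (51.1% in both) lay between a start and an end. At the distance limit itself, 87 peaks between 5 and 6 kb had a median difference of -0.60, and 102 otherwise eligible peaks between 4 and 5 kb one of -0.62.

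Signal in this class was lower than at promoters in both groups. The median log2 signal was 4.28 in control (quartiles 3.48 and 5.23) and 3.70 after IFN-β (2.94 and 4.65). Peaks within 1 kb of a protein-coding TSS had medians of 5.52 and 4.77, and distal peaks inside protein-coding genes 4.34 and 3.81. Of the intergenic distal peaks, 813 (24.4%) had a mean log2 signal over both groups of at least 5, equal to 32 normalized reads. They are called well covered here, and 8676 peaks of the whole table (43.2%) met the same limit. A peak can pass this limit on the mean through 1 group alone, and such peaks count in all shares of well-covered peaks. The class held 11.6% of the summed control signal of the table and 13.1% of its IFN-β signal, or 12.7% of the latter without the 1 peak of highest IFN-β value.

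**Figure D2:**
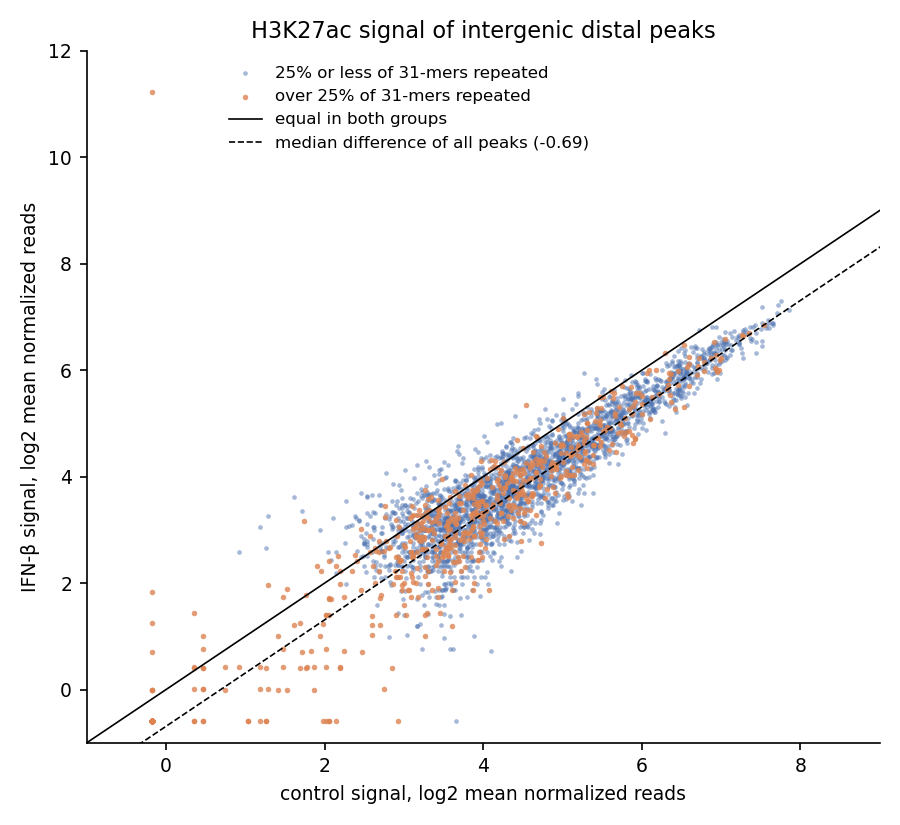
Log2 mean normalized reads of the 3331 intergenic distal peaks in control (horizontal) and IFN-β (vertical), 1 point per peak, coloured by whether more than 25% of the peak's 31-mers recur in the reference. The solid line marks equal signal and the dashed line the median difference of all peaks (-0.69), and a single point stands at 11.22 after IFN-β over a control value of -0.17.

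Most of these peaks had less signal after IFN-β, as did the table as a whole. The difference, IFN-β minus control on the log2 scale, had a median of -0.54 (quartiles -0.84 and -0.30) over the intergenic distal peaks, -0.55 over distal peaks inside protein-coding genes, -0.75 over peaks within 1 kb of a TSS and -0.69 over all 20087. A shift of all peaks cannot be told apart from the scaling of the libraries, so differences were read against -0.69. The difference was above 0 at 355 intergenic distal peaks, or 10.7%, against 5.93% of all peaks. It lay at least 1 above the median of all peaks at 146 (4.38%, against 2.51%) and at least 1 below it at 74 (2.22%, against 1.44%). Distal peaks inside protein-coding genes had shares of 11.6%, 5.40% and 2.00%. The excess over all peaks was thus common to both distal classes and went in both directions.

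Well-covered peaks gave smaller shares. Of the 813, 26 (3.20%) had a difference above 0, against 1.37% of all well-covered peaks. A difference at least 1 above -0.69 was found at 8 (0.984%, against 0.507%), and at least 1 below at 0, against 0.0115%, where 0 of 813 allows a share of up to 0.470% by the Wilson interval. That interval counts peaks as independent and does not cover error between libraries. Their median difference was -0.59, beside -0.58 for distal peaks inside protein-coding genes, -0.78 at promoters and -0.74 over all well-covered peaks. At matched mean signal both distal classes stayed above promoters. Between 5 and 6 the medians were -0.57, -0.56 and -0.75 for intergenic distal, intragenic distal and promoter peaks, and between 6 and 7 they were -0.60, -0.64 and -0.81. Between 5 and 6 the SD of the difference over 504 intergenic distal peaks was 0.328 where counting alone gives 0.197, and between 6 and 7 it was 0.232 against 0.140. This SD also holds replicate error and real differences among peaks, which cannot be told apart here.

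**Figure D3:**
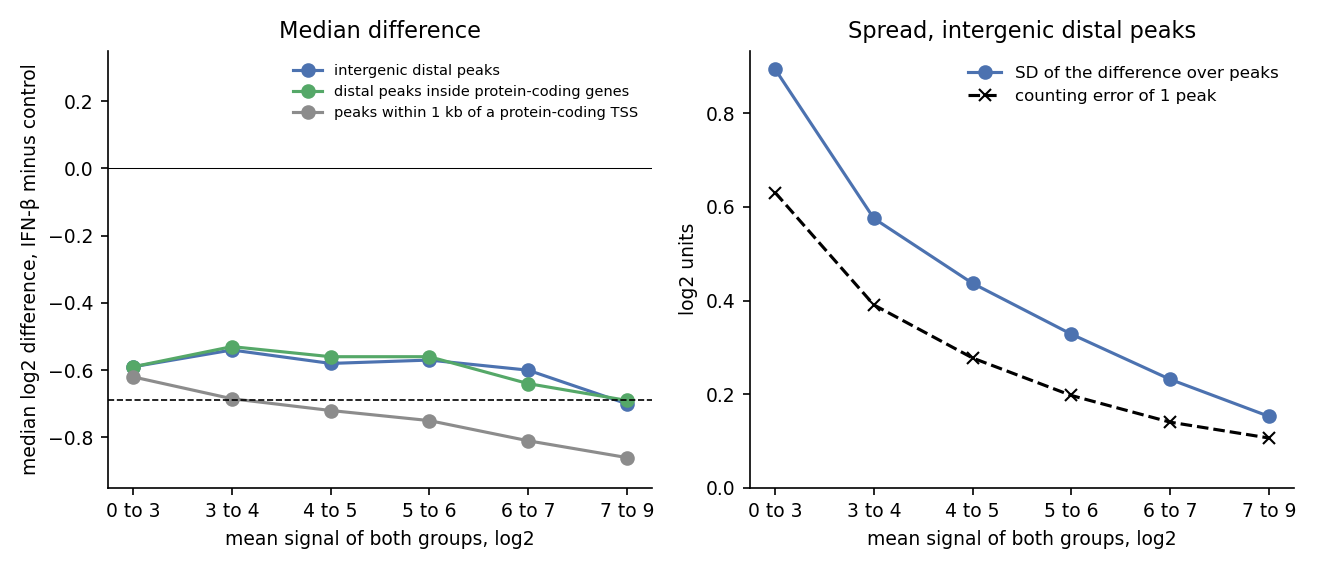
Left, median log2 difference (IFN-β minus control) against the mean log2 signal of both groups for intergenic distal, intragenic distal and promoter peaks, with the dashed line at -0.69. Right, SD of the difference over intergenic distal peaks (circles) and the error that counting alone gives (crosses), at 0.328 and 0.197 between 5 and 6; the peak of highest IFN-β value lies beyond the last bin.

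Base composition moved with the difference. The windows of 1001 bp around the centres had a median GC content of 46.4% in intergenic distal peaks, 44.1% in intragenic distal peaks and 64.2% at promoters, and the ratio of observed to expected CpG was 0.262, 0.237 and 0.782. Over the 813 well-covered peaks the Spearman correlation between GC content and difference was -0.277, as a description over peaks that share 4 libraries. Among peaks with a mean signal of at least 4, the median difference of the intergenic distal class went from -0.45 in windows of at most 35% GC to -0.57 at 45 to 50% and -0.745 above 60%. Promoter peaks gave -0.54, -0.66 and -0.79 in the same windows and intragenic distal peaks -0.48, -0.57 and -0.75. Promoter values were thus nearer to those of intergenic distal peaks in these windows than over whole classes (-0.75 against -0.54). The whole-class values had no limit on signal, and with a mean of at least 5 they were -0.78 and -0.59. At 35 to 40% GC the order was reversed, with -0.485 at promoters and -0.52 in the intergenic distal class. The part of GC content in the difference was not tested.

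The 5 highest control signals of the class lay between 7.66 and 7.86. The highest was chr12:88934562-88935562, 354211 bp upstream of KITLG, which encodes the ligand of the KIT receptor, with DUSP6, an ERK phosphatase, on the other side. Its log2 signal was 7.86 in control and 7.13 after IFN-β, a difference of -0.73 (-0.92 to -0.54). Next came chr4:74623680-74624680 between AREG and BTC, both ligands of the EGF receptor, at 7.75 and 7.29. The counting interval of its difference, -0.46 (-0.64 to -0.28), did not include the median of all peaks. The peak chr22:37327511-37328511 between CYTH4, an exchange factor for ARF proteins, and ELFN2 had 7.72 and 7.23. The peak chr2:226652313-226653313, 78499 bp from the near end of IRS1, the adaptor of the insulin receptor, had 7.71 and 7.07. The last, chr9:129596945-129597945, lay 11439 bp upstream of NTMT1, a methyltransferase, with 7.66 and 6.84. All 5 were lower after IFN-β, by between 0.46 and 0.82 log2 units.

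At 8 well-covered peaks the difference was at least 1 above -0.69. They were picked for this value, which is given as a description. The limit of 5 is on the mean of both groups, and some passed it only through the IFN-β value. Control signal was -0.17 at EPHA3-PROS1, 4.54 at LIMK1-EIF4H and 4.78 at the KLF6 peak, and at least 5 at the others. Leaving the repeated EPHA3-PROS1 peak for later, 7 remained, with differences from 0.32 to 0.80. At chr3:149339925-149340925, 6011 bp upstream of TM4SF18 and on the way to TM4SF1, genes of the transmembrane 4 superfamily, signal was 5.27 in control and 5.94 after IFN-β, a difference of 0.67 (0.30 to 1.04). None of its 31-mers recurred, and its window held 2 AP-1 motifs. The peak chr10:3851731-3852731, 66950 bp upstream of KLF6, a Krüppel-like transcription factor of the immediate early class, went from 4.78 to 5.28, a difference of 0.50 (0.06 to 0.94). It also had 2 AP-1 motifs and no recurring 31-mer. A peak 28612 bp upstream of ITGA3, an integrin subunit (chr17:50026856-50027856), had 5.42 and 5.83, a difference of 0.41 (0.05 to 0.77). One 6340 bp upstream of SLC35F6 (chr2:26757444-26758444) had 5.00 and 5.46. Differences of 0.38 at chr10:15201537-15202537 between NMT2 and FAM171A1 and of 0.32 at chr7:157308989-157309989 upstream of DNAJB6 had counting intervals that reached below 0 but stayed above -0.69. The largest of the 7, 0.80 at chr7:74133803-74134803 between LIMK1, the cofilin kinase, and EIF4H, lay in sequence of which 40.4% of 31-mers recur, so its reads may come from more than 1 place.

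The lowest differences among well-covered peaks were smaller steps from the median. At chr5:104512222-104513222, 949932 bp upstream of NUDT12 and inside a lncRNA gene, signal was 6.29 in control and 4.82 after IFN-β, a difference of -1.47 (-1.84 to -1.10). A peak 50056 bp upstream of YWHAZ (chr8:101002944-101003944) had 5.70 and 4.24. A peak between BCR and IGLL1 (chr22:23521102-23522102) had 5.58 and 4.25, and a GC content of 64.9%. One between MYL12B, a myosin light chain gene, and TGIF1, a homeobox repressor (chr18:3296721-3297721), had 5.75 and 4.43. The fifth, 16064 bp downstream of the TSS of RHBG (chr1:156397877-156398877), had 5.89 and 4.64, with 67.9% of its 31-mers recurring. Their differences ran from -1.47 to -1.25, which is less than 1 below -0.69 in every case.

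Repeated sequence was more common here than over the whole table. More than 25% of the 31-mers recurred in 797 intergenic distal peaks (23.9%), against 11.2% of all peaks, 16.2% of intragenic distal peaks, 4.06% of promoter peaks and 29.9% of the distal peaks at lncRNA starts. All 188 members at the lowest value in both groups were among them, with a median of 98.4% of 31-mers recurring, and they are 188 of the 460 such peaks in the table. Their difference is fixed at -0.42 by the lowest values and says nothing of the cells. The 5 peaks farthest from a TSS, between 4548526 and 5498961 bp from TPTE on chromosome 21, were all of this kind, with 85.2% to 100% recurring. Without peaks at the lowest value in either group, 3120 members had a median difference of -0.57.

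The largest value of the whole class came from such sequence. At chr3:93470021-93471021, between EPHA3 (3988387 bp away) and PROS1 (402530 bp away), control signal was at the lowest value of -0.17 and IFN-β signal was 11.22, with 50.5% of 31-mers recurring and a GC content of 27.8%. No fold is given, since the control is at the lowest value. The printed stretch shows units of like sequence, 3 of which hold a TCF/LEF motif. Of the other peaks at the lowest control value, the next highest after IFN-β were chr4:49709267-49710267 at 1.84 and chr9:42434647-42435647 at 1.25, with 49.1% and 43.0% recurring. Counting intervals of both reached below 0. How reads from several copies were placed and how input reads were taken off was not tested as a source of these values.

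Close to the 5 kb limit, the 5 nearest members were unlike one another. The peak chr14:68785742-68786742, 5001 bp downstream of the TSS of ZFP36L1, whose protein drives decay of AU-rich mRNAs, had 4.87 and 4.14 and 2 AP-1 motifs. Peaks at ASPG (chr14:104116137-104117137, 5.57 and 4.94) and IRF2BPL (chr14:77023161-77024161, 5.06 and 4.55) had similar differences of -0.63 and -0.51. A peak at PPP1R14D (chr15:40833254-40834254) had 2.61 and 2.32. The last, 5004 bp upstream of DTX2, a ligase of the Notch pathway (chr7:76456172-76457172), had -0.17 and 0.71 in sequence with 93.5% recurring.

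Many of these peaks came in runs. Joining peaks with centres at most 12.5 kb apart gave 2408 runs, of which 1893 held a single peak, 515 held 2 or more (1438 peaks) and 42 held 5 or more (294 peaks). Median control signal was 4.15 for single peaks and 4.48 in runs of 2 or more, and the median differences were -0.56 and -0.52. An AP-1 motif was in 53.3% of single peaks and in 32.7% of the 294 peaks in runs of 5 or more. Those 294 include the run of 16 between PLS3 and AGTR2 at the lowest value in both groups, where 0 peaks held the motif. Both longest runs had 16 peaks and were on chromosome X. In the run at chrX:45747710-45809606, between DIPK2B and KRBOX4, control values lay between 2.72 and 5.01 and IFN-β values between 1.87 and 5.10. The median difference there was -0.14, with 6 of 16 above 0, and 1 of the 16 was well covered. Over all members 10.7% of differences were above 0, and over all peaks 5.93%. Among members with a mean signal between 3 and 4 the share was 14.8%. In the run at chrX:115843582-115889007, between PLS3 and AGTR2 and inside the lncRNA genes DANT1 and DANT2, all 16 peaks were at the lowest value in both groups, with a median of 100% recurring 31-mers. Next came a run of 12 peaks between KLF14 and MKLN1 (chr7:130937009-130996728), with control values from 3.02 to 7.65, a median difference of -0.58 and 4 above 0. Runs of 12 and 11 peaks between KRR1 and PHLDA1 (chr12:75735466-75791090 and chr12:75618710-75667362) had median differences of -0.83 and -0.56, with 0 above 0 in both.

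By intergenic interval, the 3293 peaks with both flanking genes fell into 1673 intervals, of which 1071 held 1 peak and 33 held 10 or more, with 539 peaks (16.2% of all 3331) in the latter. The fullest lay between KRR1, a factor of ribosome assembly, and PHLDA1, an immediate early gene, on chromosome 12. Its 513.8 kb held 51 peaks, 47 of them inside the lncRNA gene ENSG00000258077. Control signal there ran from 2.75 to 7.44 with a median of 4.91, IFN-β signal from 1.01 to 6.69 with a median of 4.06, and the median difference was -0.63 with 1 of 51 above 0. The strongest, chr12:75659126-75660126, had 7.44 and 6.69. The interval between NYAP2 and IRS1 held 37 peaks over 1001 kb, with medians of 5.17 and 4.69, a median difference of -0.64 and 3 above 0. Of all members, 10.7% were above 0.

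Differences were smaller in the next intervals. Between DIPK2B and KRBOX4, 32 peaks had a median difference of -0.28, with 7 above 0, and between ERRFI1 and SLC45A1, 29 peaks had one of -0.33, with 4 above 0. Of all members 10.7% were above 0, and 7 of the 32 peaks were well covered. ERRFI1 encodes a feedback inhibitor of the EGF receptor, and 12 of these 29 peaks were inside its divergent lncRNA gene ERRFI1-DT. The strongest of them, chr1:8096977-8097977, had 7.52 and 7.19 and 2 AP-1 motifs. Each of the 14 well-covered peaks of that interval was lower after IFN-β, by between 0.02 and 0.75, and the 4 above 0 had control signals of at most 3.27. Among intervals of 23 peaks, MSRB3-HMGA2, beside a gene for an architectural chromatin protein, had a median difference of -0.37 and KLF14-MKLN1, all 23 within the lncRNA gene LINC-PINT, one of -0.51. Neighbouring peaks share their surroundings and are not replicates of one another.

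**Figure D4:**
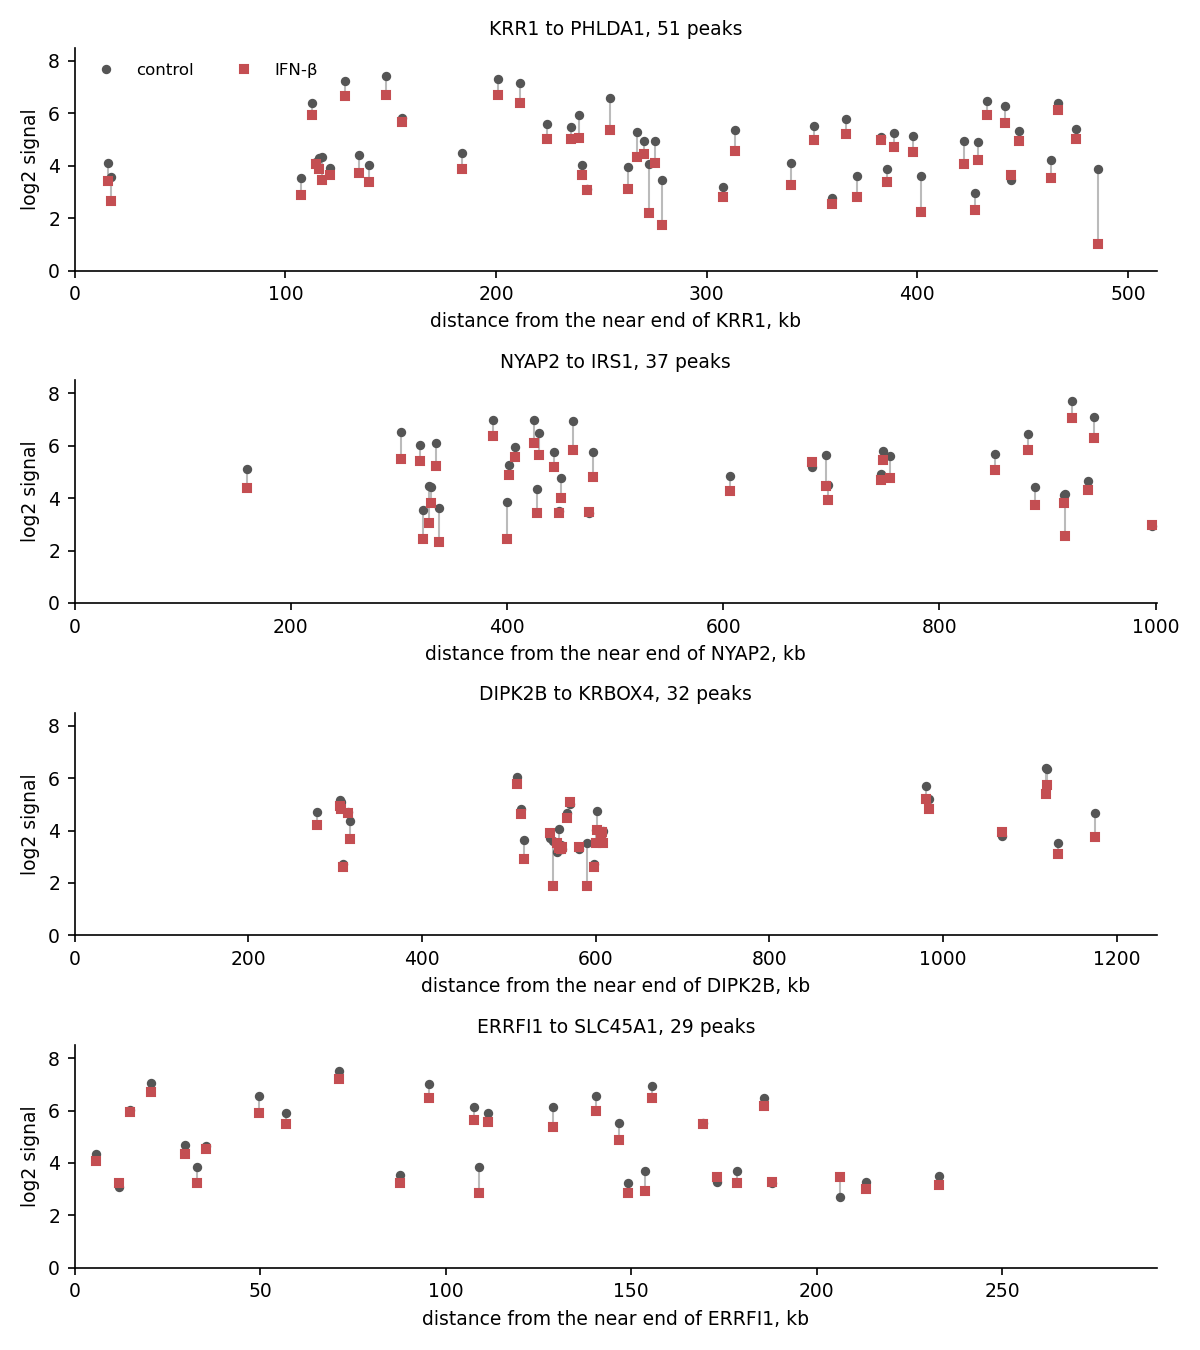
Log2 signal of each peak in control (circles) and IFN-β (squares) along the 4 intergenic intervals with the most peaks, against the distance in kb from the near end of the left gene, with a line joining both values of a peak. The 51 KRR1-PHLDA1 peaks have 1 difference above 0 and a median of -0.63, and the 29 ERRFI1-SLC45A1 peaks 4 and a median of -0.33. Of all members, 10.7% are above 0.

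Peaks beside interferon-stimulated genes had differences near those of the class. Of 89 listed genes, 13 had such a peak next to them within 100 kb, 23 peaks in all. Their median signal was 4.15 in control and 3.66 after IFN-β and their median difference -0.42, beside -0.54 for all members. The 23 include a peak between PML and GOLGA6A (chr15:74065549-74066549) at the lowest value in both groups, with 87.6% of 31-mers recurring. Its difference is fixed at -0.42, the same value as the median of the list. The difference was above 0 at 3 of 23 (13.0%, against 10.7% of members), and at 0 of the 6 that were well covered, whose median was -0.58 beside -0.59. An ISRE core was in 4 of 23 windows (17.4%, against 17.0% of members) and an AP-1 motif in 15 (65.2%, against 49.1%). With 1 group value each, a difference of this size between lists cannot be set against replicate error.

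The strongest of the 23 was chr11:355312-356312 beside IFITM3, which blocks virus entry, at 6.70 in control and 6.28 after IFN-β. Next to SOCS3, the feedback inhibitor of JAK and STAT signalling, chr17:78329058-78330058 had 6.17 and 5.28, and chr17:78352802-78353802, nearest to the gene, had 5.23 and 5.07. The differences of this pair were -0.89 (-1.23 to -0.55) and -0.16 (-0.58 to 0.26). Between POU5F1 and HLA-C, chr6:31203607-31204607, with the AP-1 motif and ISRE core shown in its sequence, had 5.19 and 4.91, a difference of -0.28 (-0.71 to 0.15). Peaks beside BATF2 (4.59 and 3.97), TNFSF10, the death ligand TRAIL (4.48 and 4.14, and 4.25 and 3.66), IFI6 (4.38 and 4.38) and PLSCR1 (4.15 and 3.98), and a weaker one beside SOCS3 (4.17 and 3.58), had differences between -0.62 and 0.00. The 11 weakest in control ranged from -1.74 beside LGALS3BP to 0.77 at a further SOCS3 peak (2.70 and 3.47), both named after their values were seen, and the interval of the latter (-0.12 to 1.66) included 0.

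Genes of the AP-1 and immediate early class, with the feedback inhibitors of RAS and ERK, had the most distal peaks of the lists. Of 35 listed genes, 21 were flanked, by 80 peaks with medians of 4.48 in control and 4.04 after IFN-β and a median difference of -0.45, and 11 of 80 (13.8%, against 10.7% of members) were above 0. Of the 80, 32 were well covered, with a median of -0.505 and 1 above 0, against 3.20% of all well-covered members. The strongest were a pair upstream of SPRY4, a feedback inhibitor of receptor tyrosine kinases, at 7.54 and 6.85 (chr5:142363253-142364253) and at 7.50 and 6.77 (chr5:142356557-142357557). In the first of the pair 30.6% of 31-mers recur, so its reads may come from more than 1 place. The IER3-DDR1 peak (chr6:30813537-30814537) had 7.22 and 6.49, and one beside IER2 (chr19:13163204-13164204) 7.13 and 6.48. All 4 were lower after IFN-β by 0.65 to 0.73.

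Epithelial and intestinal transcription factors had 33 peaks next to 13 of 29 listed genes, with a median difference of -0.53 and 4 above 0 (12.1%, against 10.7% of members). A peak 5563 bp downstream of the TSS of HES1, a Notch target, had 6.98 and 6.16 (chr3:194141211-194142211), one upstream of EHF had 6.19 and 5.72 (chr11:34599727-34600727) and one beside ELF3 had 6.05 and 4.88 (chr1:202056646-202057646), EHF and ELF3 being ETS factors of epithelia. The KLF5 peak (chr13:73090082-73091082) stood apart from these, at 5.79 and 5.81, a difference of 0.02 with a counting interval (-0.31 to 0.35) that did not include -0.69. Wnt genes had 12 peaks next to 8 of 25, with a median difference of -0.505 and 0 above 0, where 10.7% of all members were. Among them, SOX4 had 5.57 and 5.20 (chr6:21587964-21588964), MYC 5.43 and 5.29 (chr8:127808997-127809997), CD44 5.01 and 4.42 (chr11:35082042-35083522) and the receptor gene FZD7 4.56 and 4.31 (chr2:202038493-202039493).

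Motifs were searched on both strands within 500 bp of each centre, and matches of different motifs could share bases. An AP-1 motif (TGACTCA or TGAGTCA) was in 1636 intergenic distal peaks, or 49.1%, with 2 or more in 508. Its share was 55.9% in intragenic distal peaks, 11.2% at promoters and 27.3% over all peaks. At equal GC content both distal classes stayed above promoters, as at 45 to 50% GC, with 55.9%, 64.1% and 21.4%, and at 55 to 60%, with 40.4%, 53.9% and 13.6%. Motif density was 0.803 per kb within 100 bp of the centre of intergenic distal peaks, 0.875 between 200 and 300 bp and 0.545 between 400 and 500 bp, while at promoters it stayed between 0.106 and 0.144. Members with the motif had a median control signal of 4.36 and those without 4.17. In well-covered members the median difference was -0.57 with and -0.61 without it.

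**Figure D5:**
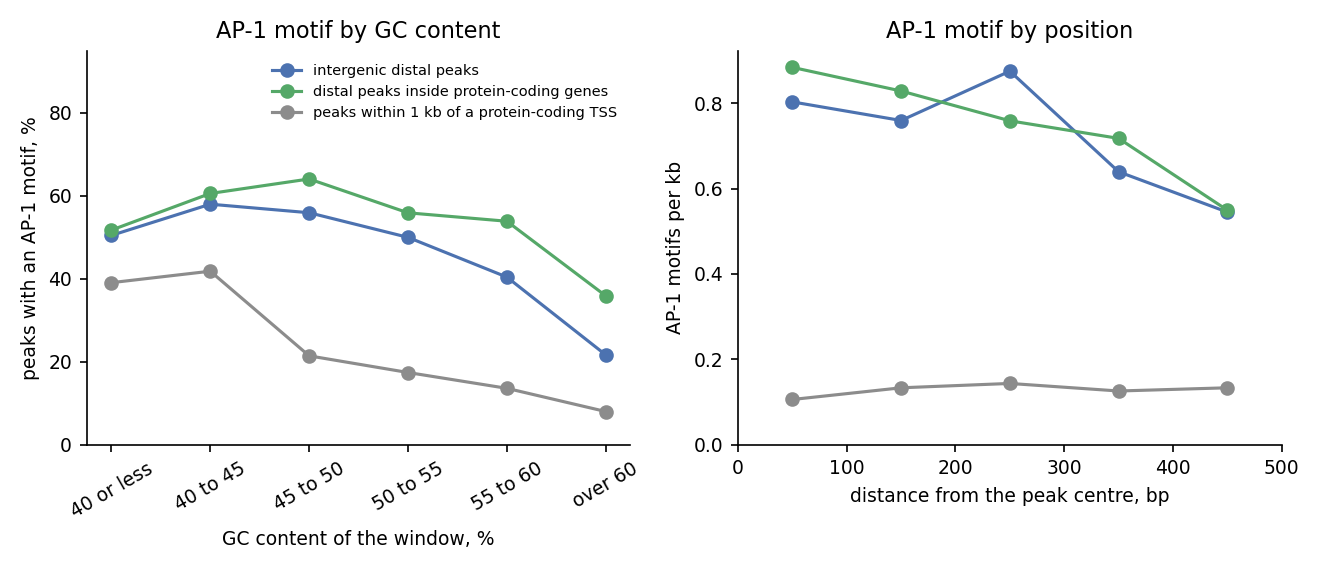
Left, percent of peaks with an AP-1 motif within 500 bp of the centre against GC content of the window, for intergenic distal, intragenic distal and promoter peaks. Right, AP-1 motifs per kb against distance from the peak centre for the same classes, with intergenic distal peaks between 0.545 and 0.875 and promoters between 0.106 and 0.144.

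The ISRE core (GAAANNGAAA) was in 566 members, or 17.0%, against 16.0% of intragenic distal peaks, 8.67% of promoters and 11.6% of all peaks. At equal GC content its share was not above that of promoters from 40 to 60% GC, as at 45 to 50%, with 18.1% in intergenic distal peaks and 19.7% at promoters. Well-covered members with it had a median difference of -0.525 and those without -0.60, with median GC contents of 43.6% and 46.5%. The gap was not particular to this class, with -0.54 and -0.58 in well-covered intragenic distal peaks and -0.71 and -0.79 at promoters. The GATA motif (AGATAA) was in 42.7% of members, 46.4% of intragenic distal peaks and 27.5% of all peaks. At 45 to 50% GC its shares in members and promoters were 40.2% and 40.1%. Well-covered members with the GATA motif had a median difference of -0.56 and those without -0.625, with median GC contents of 42.2% and 49.6%. The homeobox core (TAATTA) was in 25.7% of members, 28.2% of intragenic distal peaks and 14.9% of all peaks, and TCF/LEF (ATCAAAG) in 13.4%, 15.5% and 8.66%. The GC box (GGGCGG) went the other way, in 33.7% against 67.4%, and well-covered members with it had a median difference of -0.65 where those without had -0.56, at median GC contents of 55.5% and 42.6%. Among the 26 well-covered members with a difference above 0, 16 held an AP-1 motif (61.5%, exact 95% interval 40.6% to 79.8%) and 6 an ISRE core (23.1%, 8.97% to 43.6%). Of all 813 the shares were 50.1% and 18.2%. The 26 were picked for their difference, are part of the 813 and share 4 libraries, so no conclusion is drawn from these intervals. The ISRE cores include those of the EPHA3-PROS1 and LIMK1-EIF4H peaks, where 50.5% and 40.4% of 31-mers recur.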

How the data were processed

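H3K27ac ChIP-seq was done by the authors on 4 libraries and 1 input library of HCT116 cells. Reads were trimmed with fastp 0.19.3, aligned to GRCh38 with Bowtie2 and peaks were called per library with MACS2 against the input, per the submitters' processing notes and the methods. DiffBind and DESeq2 gave the authors' deposited table, whose log2 columns are the mean normalized read number of each peak, over the 4 libraries together and over the 2 of each group, on the log2 scale. It holds no value per library. The 3 columns of the authors' own comparison (log2 fold-change, p-value, FDR) were not used. The read length is given differently in the labels and the methods, and the number of reads per library was not measured here. Depth was read from the lowest value of each group, taken as 1 read in each library.

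Peaks were placed with GENCODE release 44 on GRCh38, and whether the table counts from 0 or 1 is not stated in the sources used here. Differences are IFN-β minus control. Counting errors came from the implied reads and were tested on simulated data. Motifs, GC content and recurring 31-mers (those with several places in the reference, alternate contigs left out) were found in Python 3.11.15 with scipy 1.17.1, numba 0.67.0, numpy 2.4.6 and pandas 2.3.3. Named are the 5 highest control signals, the 5 highest and lowest differences and every difference at least 1 above the median of all peaks among well-covered peaks, the 5 farthest from and nearest to a TSS, up to 3 peaks at the lowest control value, the 5 fullest runs and intervals (with ties), and per gene list the 4 strongest peaks (12 for interferon-stimulated genes). Values of a few peaks that the rule names are left out. The members, gene lists and rules were chosen with earlier results of these data known. Alternatives changed the distance limit, the transcripts, the lncRNA rule, the point of the peak, the signal filter, repeated sequence, the log scale and the window.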

Additional observations from a re-analysis of the deposited data

How the results depend on the processing

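The 11 results were recomputed under those of 11 alternatives that bear on them, 108 values in all. None changed sign among the medians of signal and difference, and 76 stayed within the main value's 95% interval over peaks (within 1.5 times, for the number of peaks). The median distance to a TSS was 52248 bp with a limit of 10 kb, 35827 bp with 2 kb, 45750 bp with starts of protein_coding transcripts only and 33486 bp without peaks inside lncRNA genes. With peaks at lncRNA starts kept, the median difference was -0.57, 9.44% of differences were above 0, 44.5% of peaks held an AP-1 motif and the median difference lay -0.02 from that of intragenic distal peaks, where it was 0.01 before. Well-covered peaks alone numbered 813, with median signals of 5.96 and 5.44, a median difference of -0.59, and 3.20%, 0.984% and 0% with a difference above 0, at least 1 above and at least 1 below -0.69. Without peaks at the lowest value these medians were 4.36, 3.82 and -0.57, with AP-1 at 51.1% and a gap to intragenic distal peaks of -0.02. Without peaks of over 25% recurring 31-mers they were 4.43, 3.91 and -0.57, with 52.0% and -0.02. On the scale log2(reads + 1) they were 4.35, 3.81 and -0.51, with 3.66% at least 1 above and 1.05% at least 1 below. Within 250 bp of the centre, AP-1 was in 30.7% and the ISRE core in 8.86%, as the window is shorter.

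No paired analysis was possible because the table has 1 value per group, and for the same reason leaving out each replicate could not be run. Peaks with few reads carry most of the large differences: the share at least 1 above -0.69 was 4.38% over all members and 0.984% where signal was at least 5. Replicate error cannot be had from the group values used here, so no single peak is shown here to differ between the groups. The authors' own comparison, which took replicates into account, was not used.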

Other observations

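Some intergenic distal peaks resembled promoters in sequence. In 346 of 3331 (10.4%), GC content was at least 50% and the ratio of observed to expected CpG at least 0.6. A GC box was in 93.6% of these and in 26.8% of the others, and an AP-1 motif in 11.6% and 53.5%. Their median signal was 4.34 in control and 3.59 after IFN-β, beside 4.27 and 3.73 in the others. The median difference was -0.655 beside -0.53, and in well-covered peaks -0.745 (100 peaks) beside -0.57 (713 peaks), close to the -0.74 of all well-covered peaks. More than 25% of 31-mers recurred in 33.5% of them and 22.8% of the others, and without those the median differences were -0.725 and -0.55.

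Peaks inside lncRNA genes, 936 in all (28.1%), had a median difference of -0.53 and those outside any lncRNA gene -0.55, with median control signals of 4.25 and 4.28. By chromosome, density over the allowed territory ran from 1.07 peaks per Mb on chromosome 13, 1.15 on X and 1.18 on 18 to 5.00 on 19, 5.26 on 22 and 5.48 on 17.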
